A study of Mus musculus with 5 samples.

Results

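The cells described here carried Sox9 transcripts and at most 4 transcripts each of Col2a1, the gene of type II collagen. They came from a single-cell RNA sequencing (scRNAseq) library of GFP+ Prx1-derived cells named SC9. SC9 held 2001 barcodes and 56084145 unique molecular identifiers (UMIs, each standing for 1 captured transcript). Of these barcodes, 1752 passed the filter for intact cells (between 350 and 8000 genes with a UMI, mitochondrial share below 20%), and 1370 also held at least 10000 UMIs. Cells with 5 or more UMIs of Sox9 and fewer than 5 UMIs of Col2a1 were taken as Sox9-positive cells, and there were 623 of them, which is 45.5% of the 1370 cells (42.8 to 48.2, 95% Clopper-Pearson interval). The whole series held 32547 cells that passed the same filter. The cells were chosen on their measured Sox9 and Col2a1 UMIs, so the levels of these 2 genes are given as a description only. The comparison group consisted of the 176 SC9 cells with 0 UMIs of Sox9 and fewer than 5 of Col2a1, called Sox9-negative below. Between them stood 314 cells with 1 to 4 UMIs of Sox9 and fewer than 5 of Col2a1, called Sox9-low. A further 232 cells held 5 or more UMIs of both genes and are called Col2a1-high.

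All 5 libraries of the series were made from skeletal muscle around the tibia of Prx1Cre;mTmG mice on a C57Bl/6 background, with 2 mice pooled in each. In these mice Prx1-Cre, which acts in the limb mesenchyme, switches a Tomato reporter to GFP, so the sorted cells include every mesenchymal cell type of the muscle interstitium that descends from Prx1-expressing cells. Neither periosteum nor marrow was part of the tissue. The libraries are labelled d0 (uninjured, SC3), d3 post-fracture (SC4), d5 post-fracture (SC5), d3 post-polytrauma (SC9) and d5 post-polytrauma (SC10), where the fracture was a non-stabilized tibial fracture and polytrauma added mechanical injury to the muscles beside it. The label of SC9 is in doubt, because its number of barcodes equals the number of cells in the study's source data for d5 post-fracture. It is therefore called by its name here, and no difference between conditions was tested. Each group of cells comes from 1 library, so there is no replicate. No p-value is given, and all intervals cover counting error only.

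SC9 shared 944 barcodes with SC10 and none with SC3, SC4 or SC5. Among the 1370 deep SC9 cells 863 had such a copy, including 418 Sox9-positive cells (67.1%) and 66 Sox9-negative cells (37.5%). The SC9 cells held a median of 48.6 times as many UMIs as their copies in SC10 (5th to 95th percentile 44.2 to 54.5), with medians of 42639 and 872 UMIs. In only 5 of them, 3 of these Sox9-positive, did SC9 hold under 10 times the UMIs of the copy. Leaving out these 5 cells gave the same counts of genes as those reported below, and leaving out all cells with a shared barcode, which keeps the shallower cells (median 20478 UMIs), kept 205 Sox9-positive and 110 Sox9-negative cells.

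SOX9 is the transcription factor that commits mesenchymal cells to cartilage. It acts with SOX5 and SOX6 on the genes of the cartilage matrix, among them type II, IX and XI collagens and aggrecan, and it comes on before type II collagen when mesenchyme condenses. SOX9 is also made in tendon and other mesenchymal cells, so that it does not name a chondrocyte by itself. A fracture callus can make bone through a cartilage template or without one.

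Sox9 (chr11:112782224-112787760, plus strand, GRCm38) was at 430 CPM (UMIs of a gene per 1000000 UMIs) in the summed 623 Sox9-positive cells, with a median of 13 and a maximum of 91 UMIs per cell. The 225 cells with 5 to 9 UMIs were at 184 CPM, the 235 cells with 10 to 19 UMIs at 373 CPM, and the 163 cells with 20 or more at 777 CPM. The Sox9-low cells were at 67.1 CPM and the Col2a1-high cells at 723 CPM. These levels follow from the rule and the bins. The 54 cells just inside it, with 5 UMIs, were at 128 CPM and the 54 cells just outside, with 4 UMIs, at 117 CPM. Col2a1 itself was at 37.3 CPM in the Sox9-positive, 35.4 CPM in the Sox9-low and 34.1 CPM in the Sox9-negative cells, and at 6616 CPM in the Col2a1-high cells. No Col2a1 UMI was found in 158 of the 623 Sox9-positive cells (25.4%). At the Col2a1 threshold, the 47 cells with 4 UMIs were at 90.2 CPM and the 16 cells with 5 UMIs at 97.1 CPM of Col2a1.

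**Figure D1:**
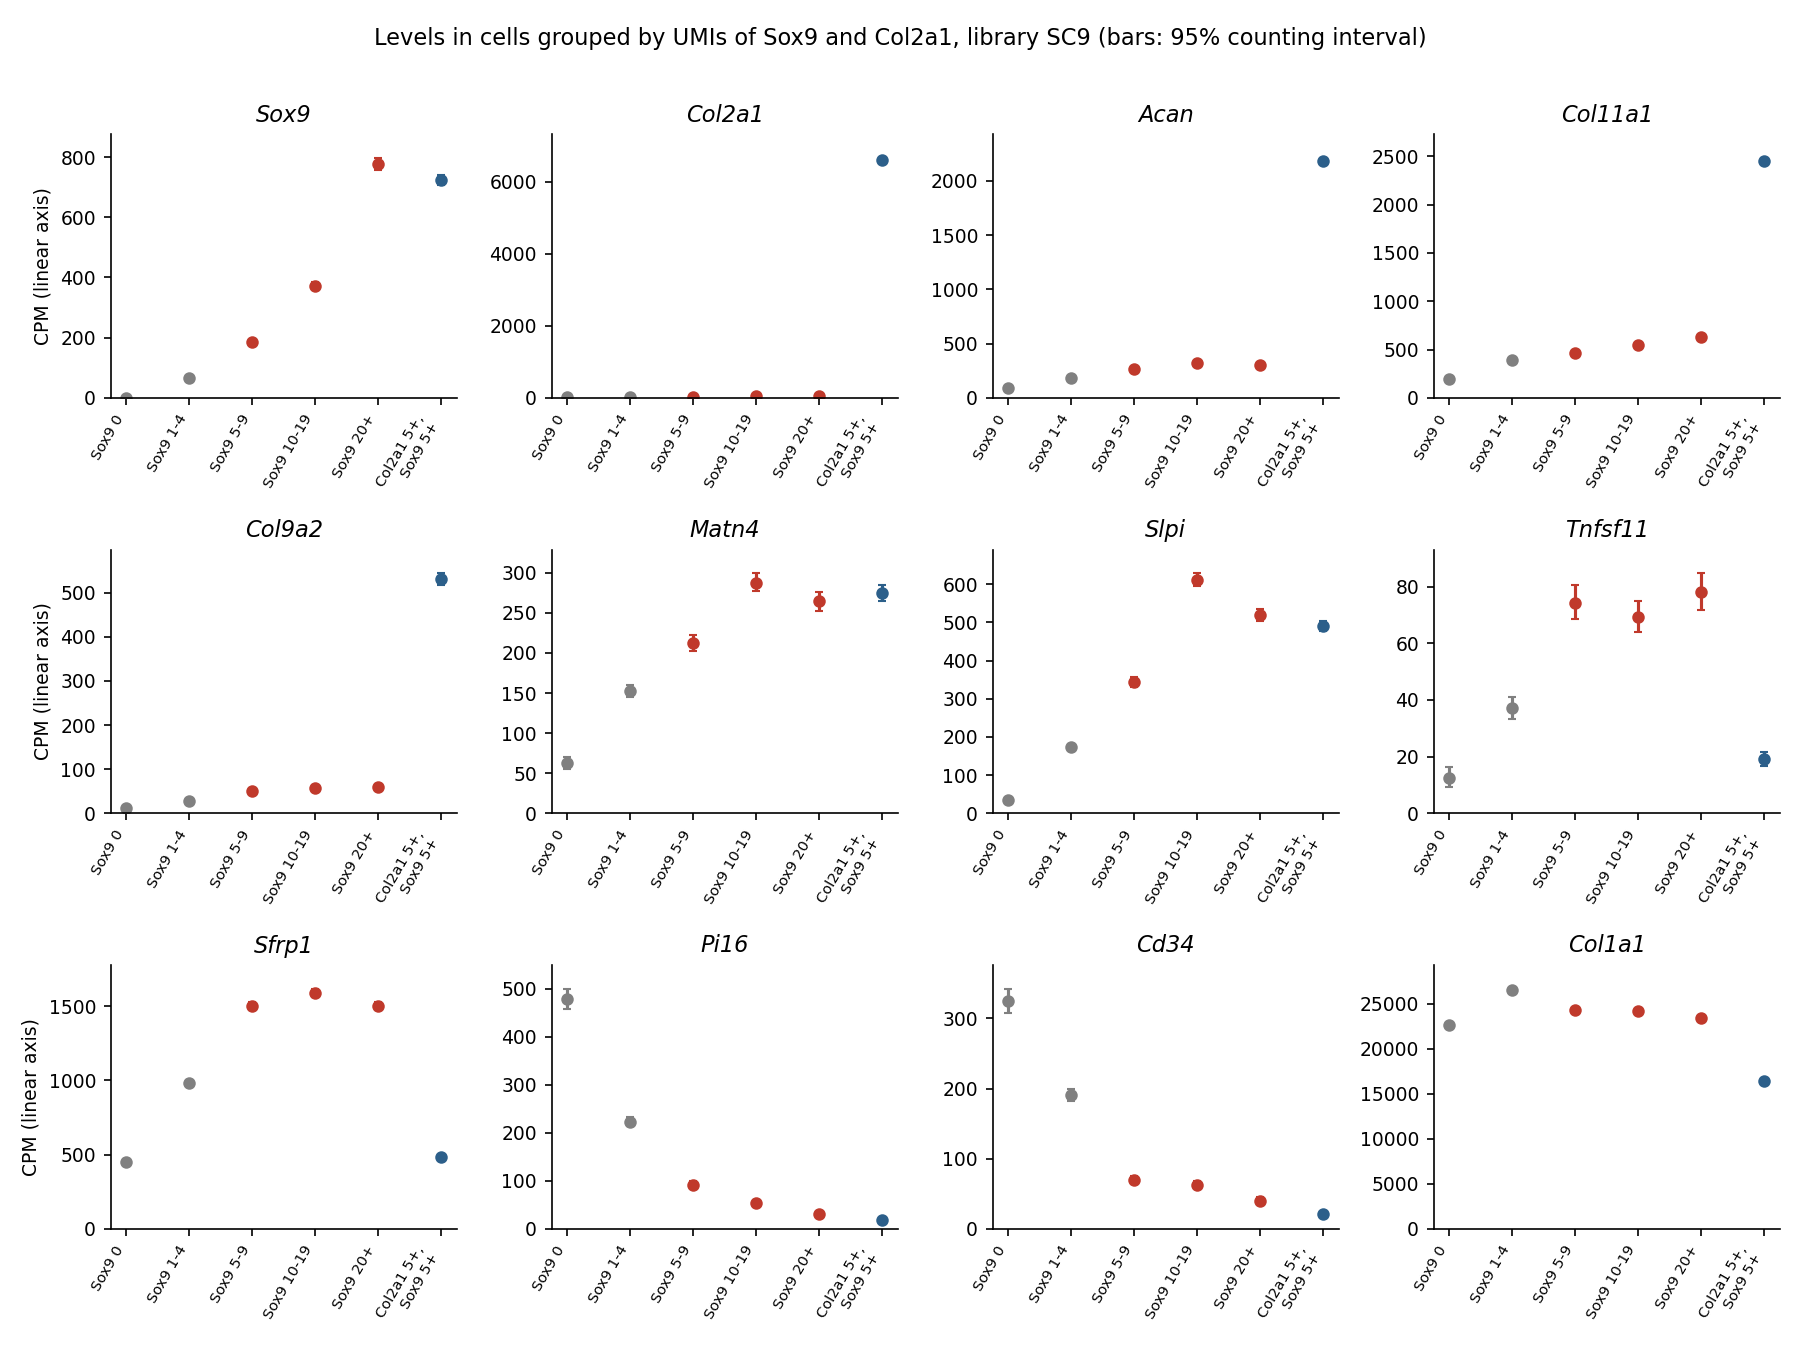
Level of 12 genes (CPM, linear axes that start at 0) in 6 groups of SC9 cells. Grey points are cells with 0 or 1 to 4 UMIs of Sox9, red points the Sox9-positive cells in 3 bins of Sox9 UMIs, blue points the Col2a1-high cells, and bars 95% Poisson intervals. Acan was at 90.2 CPM in the Sox9-negative, 262 to 319 CPM in the 3 Sox9-positive bins and 2184 CPM in the Col2a1-high cells, while Sfrp1 was at 451, 1503 to 1590 and 482 CPM.

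The sort was checked first. EGFP, the transcript of the reporter, was found in 622 of the 623 Sox9-positive cells, at 1699 CPM against 1891 CPM in the Sox9-negative cells, and tdTomato had 0 UMIs in them. Depth differed between the groups. The median was 38529 UMIs (5789 genes) in the Sox9-positive, 21677 UMIs (4387 genes) in the Sox9-negative, 31975.5 in the Sox9-low and 46078.5 in the Col2a1-high cells. A minimum number of UMIs of a gene selects deep cells. Shares of cells with a gene are therefore given after each cell was thinned to 10000 UMIs. Each ratio was also computed with the Sox9-negative cells reweighted to the depths of the Sox9-positive cells, called depth-stratified. Few Sox9-negative cells carry much of that weight. With at least 40000 UMIs there were 282 Sox9-positive but only 19 Sox9-negative cells. Depth-stratified values are given without an interval and can rest on these few cells.

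Among 9854 genes with a mean of at least 5 CPM, 237 were at least 2-fold higher in the Sox9-positive than in the Sox9-negative cells (2.41%) and 535 at least 2-fold lower (5.43%). Over all of them the log2 ratio had a median of 0.03. Of the 237 higher genes 28 were at least 4-fold higher, and for 120 the counting interval lay past 2-fold as a whole. Of the 535 lower genes 179 were at least 4-fold lower, and for 384 the interval lay past 2-fold. After depth stratification 155 of the higher and 343 of the lower genes were still past 2-fold in the same direction.

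**Figure D2:**
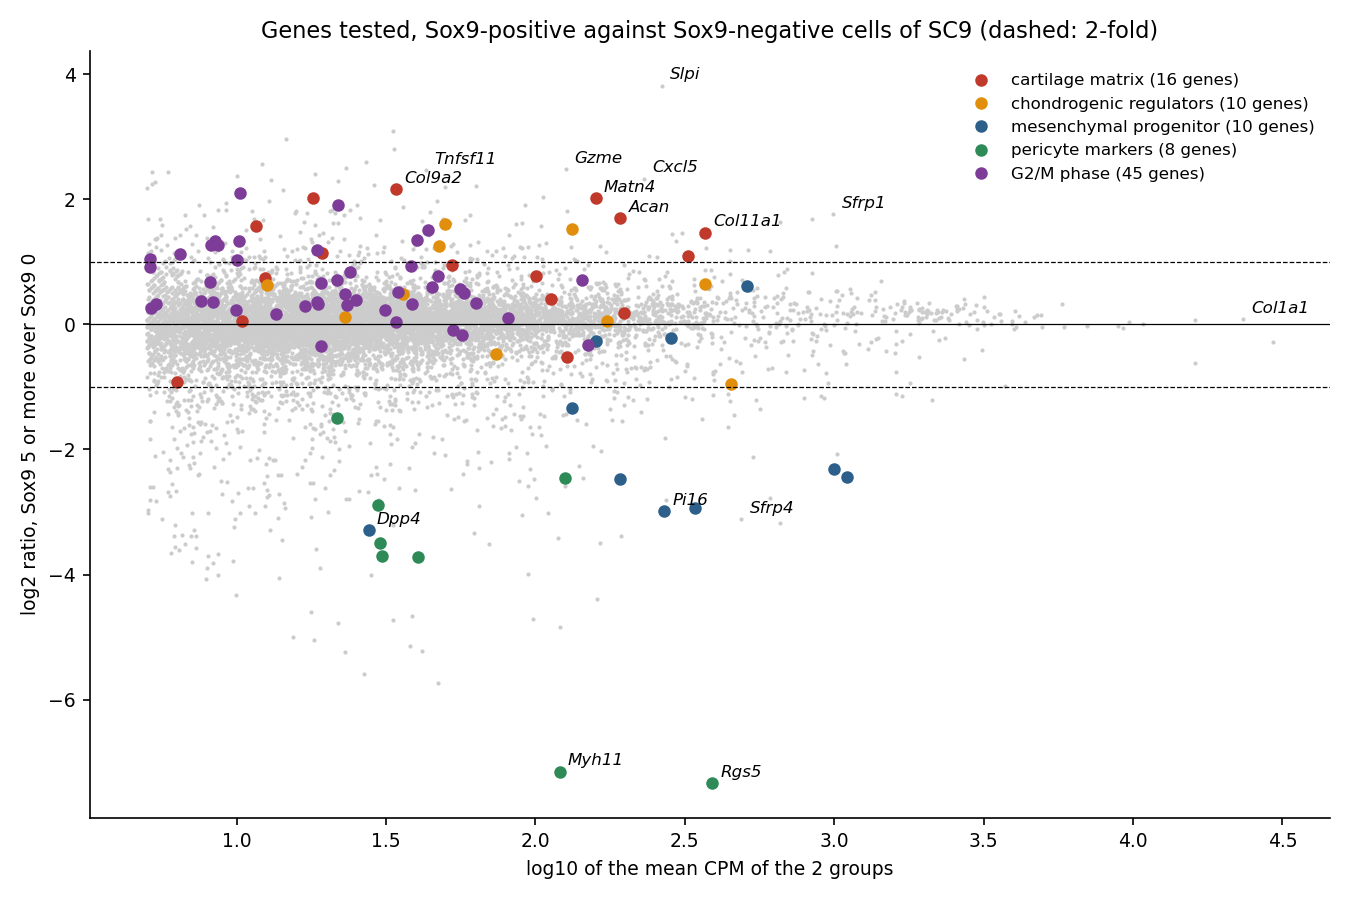
Log2 ratio of Sox9-positive over Sox9-negative cells against the log10 of the mean CPM for the 9854 genes tested (grey), with 5 gene lists in colour and dashed lines at 2-fold. Of the 16 cartilage matrix genes (red) 8 lie above the upper dashed line and none below the lower, and all 8 pericyte markers (green) lie below the lower line.

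Genes of the cartilage matrix were higher in the Sox9-positive cells. Of 23 genes listed, without Col2a1, 16 were tested, 8 of these were at least 2-fold higher, none was 2-fold lower, and the median log2 ratio was 1.03 (0.93 depth-stratified). Acan, the core protein of the proteoglycan aggrecan (chr7:79053483-79115099), was at 90.2 CPM in the Sox9-negative, 179 CPM in the Sox9-low, 294 CPM in the Sox9-positive and 2184 CPM in the Col2a1-high cells. This is a ratio of 3.26 between Sox9-positive and Sox9-negative cells (interval 2.95 to 3.62). Its log2 value ran from 1.08 to 2.52 over the alternatives other than those added after the data were seen. It was 0.72 against the Sox9-low cells. Without dividing cells and cells with markers of other types, and depth-stratified, it was 4.00. In that setting only 8 Sox9-negative cells stood against the 136 Sox9-positive cells with at least 40000 UMIs. After thinning, Acan was found in 440 of 623 Sox9-positive cells (70.6%, 66.9 to 74.2) and in 51 of 176 Sox9-negative cells (29.0%, 22.4 to 36.3). As a measure of background, it was found in 6 of the 27 Sox9-negative cells with 3 or more pericyte markers (22.2%, 8.6 to 42.3), whose median depth was 17930 UMIs before thinning. Among all 47 cells with 3 or more pericyte markers, with any Sox9 and Col2a1, the share was 38.3% (24.5 to 53.6). The share in Sox9-positive cells lay above both intervals.

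Col11a1, a chain of the type XI collagen that seeds cartilage fibrils, was at 195 CPM in Sox9-negative and 542 CPM in Sox9-positive cells, a ratio of 2.77 (2.59 to 2.98). The chains of type IX collagen, which coats these fibrils, were all higher. Col9a1 was at 6.49 and 29.4 CPM (ratio 4.53, 3.11 to 6.87), Col9a2 at 11.8 and 56.5 CPM (4.78, 3.61 to 6.45) and Col9a3 at 11.6 and 26.9 CPM (2.32, 1.74 to 3.16). Matn4, a matrilin that links matrix filaments, was at 62.3 and 256 CPM (4.10, 3.63 to 4.65), and Comp, the cartilage oligomeric matrix protein also made in tendon, at 205 and 441 CPM (2.15, 2.00 to 2.30). Cnmd, which encodes the angiogenesis inhibitor chondromodulin, was at 5.33 and 17.8 CPM (3.34, 2.20 to 5.33). Depth-stratified, the log2 ratio of Matn4 was 3.20 in place of 2.02 and that of Col9a2 2.81 in place of 2.17. Without the cells that held any Col2a1, Cnmd was at 0.33 and Col9a3 at 0.86, and without the shared barcodes Comp was at 0.83, all 3 inside 2-fold. The other 8 genes of the list were under 2-fold. Col27a1, Edil3 and Matn3 were at log2 ratios of 0.78, 0.95 and 0.74, Matn2 and Fmod at 0.41 and 0.19, and Prelp and Susd5 at -0.52 and -0.92. The value of Susd5 was unstable, from -1.56 without the shared barcodes and -1.07 without dividing cells, both past 2-fold lower, to 0.51 when depth-stratified and 2.24 without the cells that held markers of other types. Col11a2, the partner chain of Col11a1, was at 10.6 CPM in the Sox9-positive and 10.2 CPM in the Sox9-negative cells, and at 673 CPM in the Col2a1-high cells. Matn1, a marker of mature cartilage, had 0 UMIs in the Sox9-positive cells, which allows a level of up to 0.123 CPM.

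The partners of SOX9 were measured at low levels. Sox5 was at 24.1 CPM in Sox9-positive and 22.02 CPM in Sox9-negative cells, a log2 ratio of 0.13 that became 0.98 when depth-stratified. After thinning it was found in 21.2% (18.0 to 24.6) and 17.6% (12.3 to 24.1) of cells, and in 40.7% of the 27 Sox9-negative cells with pericyte markers. Sox6 was under the minimum level for the comparison, at 3.24 CPM in Sox9-negative and 6.71 CPM in Sox9-positive cells (ratio 2.07, 1.20 to 3.87, from 14 and 164 UMIs), and its depth-stratified log2 ratio was 2.03. It was found in 7.22% of Sox9-positive and 3.98% of Sox9-negative cells, and in 18.5% (6.3 to 38.1) of the 27 Sox9-negative cells with pericyte markers. Both genes were found together in 14 Sox9-positive cells (2.25%), in 4 Sox9-negative cells (2.27%) and in 29.7% of the Col2a1-high cells. Among the 27 Sox9-negative cells with pericyte markers this share was 14.8% (4.2 to 33.7). Fgfr3, a receptor of proliferating chondrocytes, was found in 2.25% of Sox9-positive, 1.14% of Sox9-negative and 50.0% of Col2a1-high cells. The markers of cartilage thus gave a mixed answer to the name prechondrogenic. Acan was higher by level and by share, Sox6 by level but with overlapping intervals of the shares, and the intervals of Sox5 and Fgfr3 overlapped for the shares and included 1 for the ratios, so the cells are called Sox9-positive here.

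Of 18 chondrogenic regulators besides Sox9, 10 were tested and 3 were at least 2-fold higher, with none lower and a median log2 ratio of 0.55. Runx2, the transcription factor of osteoblasts and hypertrophic chondrocytes, was at 27.6 CPM in Sox9-negative, 43.6 CPM in Sox9-low, 67.5 CPM in Sox9-positive and 51.7 CPM in Col2a1-high cells. Its ratio was 2.45 (2.03 to 2.97), with a log2 value of 0.99 when depth-stratified and of 0.67 without the shared barcodes. It was found in 43.7% (39.7 to 47.7) of thinned Sox9-positive and 18.8% (13.3 to 25.3) of Sox9-negative cells, against 7.41% (0.9 to 24.3) of the 27 cells with pericyte markers. Trps1, a transcriptional repressor of the growth plate, was at 67.9 and 197 CPM (ratio 2.91, 2.58 to 3.28), and Wwp2, a ubiquitin ligase whose intron hosts the cartilage microRNA miR-140, at 24.1 and 75.5 CPM (3.13, 2.57 to 3.85). Runx1, Barx2 and Foxc1 were at log2 ratios of 0.65, 0.63 and 0.48, Arid5b at 0.06, and Arid5a and Zbtb20 at -0.48 and -0.95. Nkx3-2 and Barx1, both early cartilage factors, had 0 UMIs in the Sox9-positive cells.

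**Figure D3:**
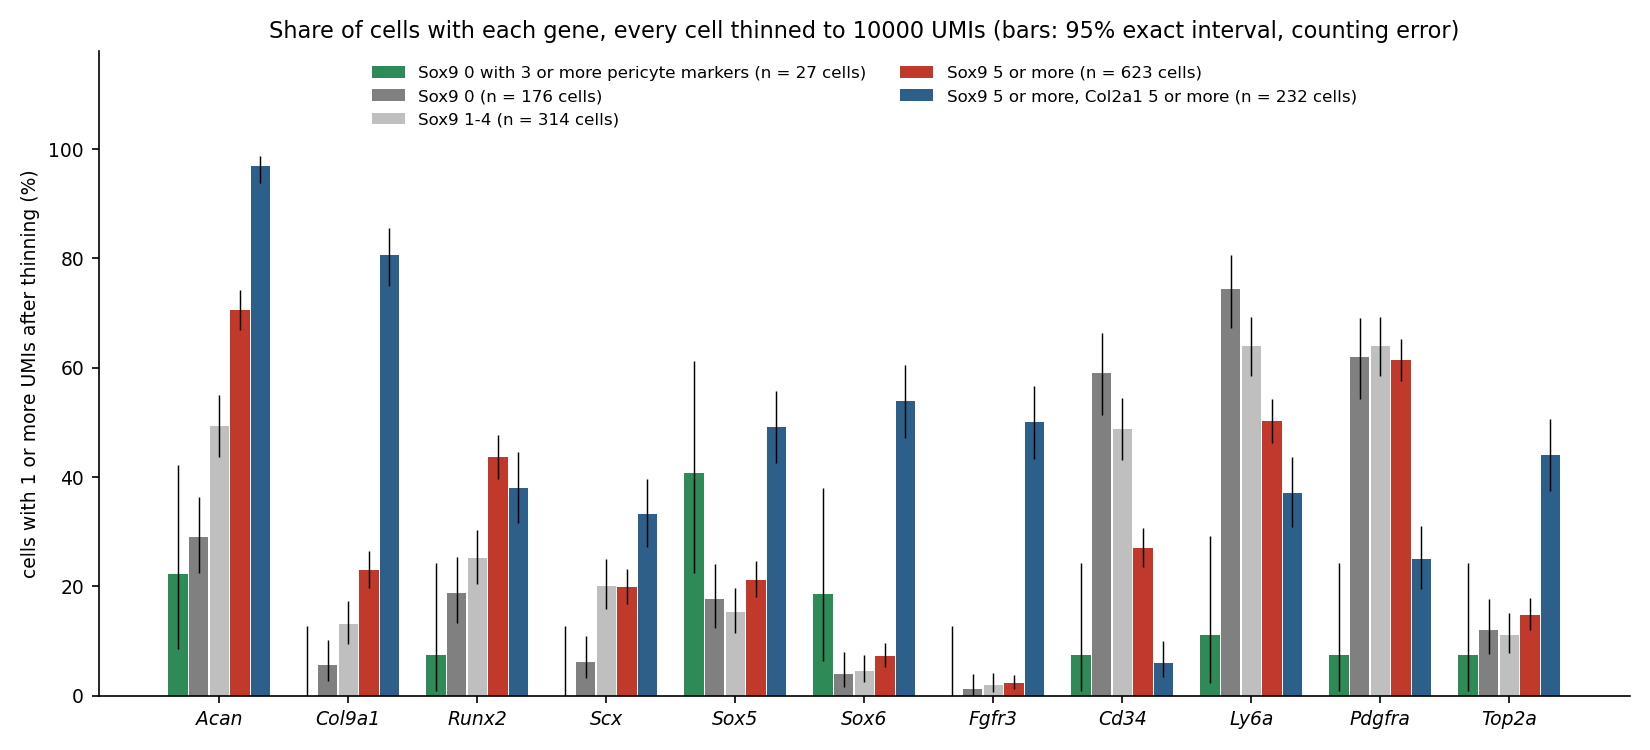
Share of cells (percent) with at least 1 UMI of each gene after every cell was thinned to 10000 UMIs, in 5 groups of SC9 cells. Bars are 95% Clopper-Pearson intervals, and green columns show the 27 Sox9-negative cells with 3 or more pericyte markers, a subset of the Sox9-negative cells. Acan and Runx2 were found in 70.6% and 43.7% of Sox9-positive cells, Sox6 and Fgfr3 in 7.22% and 2.25%.

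Genes of the sugar chains and of collagen handling differed less. Of 19 tested genes of glycosaminoglycan synthesis and sulfation, 2 were higher and 1 lower, with a median log2 ratio of 0.22. Chsy1 and Csgalnact1, which build chondroitin chains, were at ratios of 3.09 (2.66 to 3.61) and 2.35 (2.06 to 2.70), and Csgalnact1 was inside 2-fold when depth-stratified (log2 0.90). Ugdh, which makes the sugar donor for these chains and for hyaluronan, was at 676 CPM in Sox9-negative and 247 CPM in Sox9-positive cells, that is 2.73-fold lower (2.61 to 2.86). None of 28 tested genes of collagen folding and secretion was past 2-fold in either direction. Their median log2 ratio was 0.43, or 0.23 depth-stratified, and the collagen chaperone Serpinh1 was at 1829 and 2102 CPM.

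Of 5 tested genes of hypertrophic cartilage 1 was higher and none lower, and of 2 tested osteogenic genes 1 was higher and 1 lower. The higher gene was Alpl in both cases, which is on both lists. After thinning, Col10a1, the collagen of hypertrophic cartilage, was found in 2 of 623 Sox9-positive cells (0.321%) and Ihh, the hedgehog ligand of prehypertrophic cartilage, in 1 (0.161%). Sp7, which marks osteoblast precursors, was found in 15 (2.41%, 1.4 to 3.9) against 1 of 176 Sox9-negative cells (0.568%, 0.01 to 3.1), and these intervals overlap. Bglap2 and Dmp1, genes of mature osteoblasts and osteocytes, had 0 UMIs in the Sox9-positive cells. Alpl, the alkaline phosphatase needed for mineralization and present in many mesenchymal cells, was higher, with 17.2 CPM in Sox9-negative and 82.2 CPM in Sox9-positive cells (ratio 4.79, 3.80 to 6.13). Ibsp, bone sialoprotein, was at 53.5 CPM in Sox9-negative and 8.88 CPM in Sox9-positive cells, but it was found in 2.84% and 3.05% of the thinned cells, and its log2 ratio of -2.46 turned to 1.66 once dividing cells were left out. Mmp13, the collagenase of hypertrophic cartilage, was at 127 CPM in Sox9-negative and 124 CPM in Sox9-positive cells. Its log2 ratio of -0.04 was 1.77 when depth-stratified and -1.34 without the cells that held any Col2a1.

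The largest ratios belonged to genes outside the cartilage lists. Slpi, an inhibitor of leukocyte proteases, was at 34.1 CPM in Sox9-negative, 173 CPM in Sox9-low, 494 CPM in Sox9-positive and 491 CPM in Col2a1-high cells, a ratio of 14.5 (12.3 to 17.2) between Sox9-positive and Sox9-negative cells. It lies on chromosome 2 next to Matn4 on the same strand, with 297 bases between their annotated ends (GENCODE M21), and which of these 2 genes a transcript read across that gap was counted for was not tested. The granzymes Gzmc, Gzmd and Gzme, serine proteases best known from cytotoxic lymphocytes, were at ratios of 9.70 (6.64 to 14.8), 7.80 (5.53 to 11.4) and 5.73 (4.90 to 6.74), with Gzme at 37.6 and 215 CPM. They are paralogs on chromosome 14, with 8930 bases between Gzme and Gzmd and 98832 between Gzmd and Gzmc, and how reads were split among them was not tested, so their separate values are uncertain. Markers of blood cells were low in the same cells. The 7 hematopoietic markers summed to 11.4 CPM in Sox9-positive and 60.3 CPM in Sox9-negative cells, with Lyz2 at 6.39 CPM as the most abundant and none at 0. The gap between the groups depended on depth, with Lyz2 at a log2 ratio of -2.32 as measured, -0.12 when depth-stratified and 0.54 with at least 20000 UMIs.

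Several signalling genes were part of the same group. Vdr, the vitamin D receptor, was at 6.95 and 47.2 CPM (6.79, 4.73 to 10.1), and Lif, a cytokine of the interleukin-6 family, at 6.26 and 40.1 CPM (6.41, 4.38 to 9.78). Tnfsf11, which encodes RANKL, the ligand that drives osteoclast formation, was at 12.5 CPM in Sox9-negative, 37.0 CPM in Sox9-low, 73.6 CPM in Sox9-positive and 19.02 CPM in Col2a1-high cells. Its ratio was 5.88 (4.48 to 7.86). It was thus highest, of these 4 groups, in the Sox9-positive cells. Cxcl5, a chemokine that attracts neutrophils, had the same order, with 76.0, 171, 387 and 78.3 CPM. Ptger4, a receptor of prostaglandin E2, was at 21.8 and 105 CPM (4.83, 3.93 to 6.00). Hp, the haemoglobin-binding haptoglobin, Aqp5, a water channel, and Acot1, an acyl-CoA thioesterase, were at ratios of 4.18, 5.07 and 5.51.

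The UMIs of these genes were spread unevenly over the Sox9-positive cells. After thinning, the 63 cells with the most UMIs of a gene held 94.2% of the UMIs of Gzmd, 81.7% of Gzme, 64.1% of Slpi and 65.5% of Cxcl5. The median of this share over the 237 higher genes was 67.1%, so Slpi and Cxcl5 were near it and the 2 granzymes above it. The share depends on the level of a gene, since few UMIs can fall in few cells only. It was 87.8% for Cnmd, 75.7% for Col9a3 and 60.4% for Col9a1, which are low, and 40.9% for Acan, 33.6% for Col11a1, 30.9% for Sfrp1 and 20.3% for Col1a1, which are higher. UMIs of Slpi and Matn4 were found in the same cells. These 2 genes are neighbours, and whether reads of 1 were counted for the other was not tested. Matn4 was found in 253 of 310 Sox9-positive cells with Slpi (81.6%, 76.8 to 85.8) and in 110 of 313 without it (35.1%, 29.9 to 40.7). Cxcl5 was found in 67.4% (59.9 to 74.4) of the 172 cells with Gzme and in 32.8% (28.5 to 37.4) of the 451 without. Scx, the transcription factor of tendon progenitors, behaved the other way, in 9.30% (5.4 to 14.7) of the cells with Gzme and 23.9% (20.1 to 28.2) of those without.

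Several genes were found at different shares of Sox9-positive cells with and without Acan. Scx was found in 108 of 440 Sox9-positive cells with Acan (24.5%, 20.6 to 28.8) and in 16 of 183 without it (8.74%, 5.1 to 13.8). Col9a2 was found in 40.7% (36.1 to 45.4) and 22.4% (16.6 to 29.1) of them, and Slpi in 56.4% (51.6 to 61.1) and 33.9% (27.1 to 41.2). The progenitor genes Cd34 and Pi16 had the opposite order, at 21.1% (17.4 to 25.3) and 9.09% (6.6 to 12.2) of cells with Acan against 41.0% (33.8 to 48.5) and 24.0% (18.0 to 30.9) of cells without. Runx2 did not differ beyond counting error, at 44.3% (39.6 to 49.1) and 42.1% (34.8 to 49.6), nor did Cxcl5, at 42.3% (37.6 to 47.0) and 42.6% (35.4 to 50.1). Acan and Runx2 were found together in 31.3% (27.7 to 35.1) of Sox9-positive and 5.68% (2.8 to 10.2) of Sox9-negative cells.

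Receptors, ligands and inhibitors of the pathways that steer cartilage were mostly within 2-fold. Of 9 tested FGF pathway genes 2 were higher and 1 lower. The receptor Fgfr2 was at 11.6 and 40.1 CPM (3.46, 2.61 to 4.70), the feedback phosphatase Dusp6 at 19.2 and 69.7 CPM (3.62, 2.91 to 4.57), and the ligand Fgf18 was 4.66-fold lower (3.64 to 5.94). Fgfr1 was at 237 and 238 CPM. Of 16 BMP pathway genes 1 was higher, the receptor Bmpr1b with a log2 ratio of 1.05 (0.31 depth-stratified), and 2 were lower, the BMP-binding inhibitor Chrd at -1.38 and the target Id4 at -1.27 (-0.21 depth-stratified). Their most abundant member Id3 was at -0.03. Of 14 TGF-beta pathway genes the binding protein Ltbp2 and the activin subunit Inhba were higher, at log2 ratios of 1.27 and 1.24, and Ltbp4 was lower at -1.14. All 3 fell inside 2-fold when depth-stratified, at 0.54, 0.70 and -0.97.

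Among 15 tested Wnt pathway genes 2 were higher and 4 lower, with a median log2 ratio of 0.18. When depth-stratified 1 was higher and 2 were lower, and the ligand Wnt11 was at -0.40 in place of -1.12. The secreted inhibitor Sfrp1 was at 451 CPM in Sox9-negative, 983 CPM in Sox9-low, 1536 CPM in Sox9-positive and 482 CPM in Col2a1-high cells, a ratio of 3.41 (3.26 to 3.57). Its relative Sfrp4 was lower in each further group, with 876, 498, 100.5 and 42.6 CPM. The ligand Wnt2 was at a log2 ratio of -2.24. The most abundant gene of the list, Sfrp2, was at 1498 and 1700 CPM. Of 6 genes of the hedgehog and PTHrP pathways the hedgehog receptor and target Ptch1 was higher (10.9 and 23.7 CPM, ratio 2.18, 1.62 to 3.00), and Pthlh, the PTHrP ligand, was lower at a log2 ratio of -1.19. Both were inside 2-fold without the cells that held any Col2a1, at 0.98 and -0.58. Of 6 Notch pathway genes 4 were lower and none higher. The ligand Jag1 and the target Hes1 were at log2 ratios of -1.11 and -1.45, and Notch3 and Heyl, both at home in pericytes, at -3.71 and -3.02. Without the cells that held markers of other types none of the 4 was past 2-fold lower, with Jag1 at -0.83, Hes1 at -0.96, Heyl at -0.24 and Notch3 at 0.58. Notch3 is itself a marker by which those cells were left out, so its change follows from the exclusion.

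Genes of resting mesenchymal progenitors were lower in the Sox9-positive cells. Of 10 listed genes 7 were at least 2-fold lower and none higher, with a median log2 ratio of -2.38, or -1.77 depth-stratified. Pi16, a marker of adventitial fibroblasts, was at 479 CPM in Sox9-negative, 224 CPM in Sox9-low, 59.7 CPM in Sox9-positive and 17.8 CPM in Col2a1-high cells, and within the Sox9-positive cells at 92.2, 54.1 and 30.3 CPM from the lowest to the highest Sox9 bin. Cd34, a surface marker used to sort progenitors, was at 324, 191, 58.0 and 21.2 CPM in the same 4 groups. Ly6a, which encodes SCA1, was at 1662, 1042, 333 and 145 CPM. For these 3 genes each of the 4 groups was thus below the one named before it, and the 4 counting intervals did not overlap. The last step did not follow Sox9 alone. Col2a1-high cells, at 723 CPM of Sox9, were also below the bin with 20 or more UMIs of Sox9, at 777 CPM. Dpp4 was 11.9-fold lower (9.36 to 15.1) in Sox9-positive than in Sox9-negative cells and Ly6c1 7.69-fold lower (7.25 to 8.17). In contrast Pdgfra, the receptor that marks muscle mesenchymal progenitors, was found in 61.5% (57.5 to 65.3) of thinned Sox9-positive and 61.9% (54.3 to 69.1) of Sox9-negative cells, Prrx1, the gene behind Prx1-Cre, was at 263 and 305 CPM, and the chemokine Cxcl12 was at 616 and 403 CPM.

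None of the 6 fibrogenic genes was past 2-fold, and they differed in both directions, with a median log2 ratio of 0.12. Col1a1, the main collagen of fibrous tissue and bone, was at 22602 CPM in Sox9-negative and 24012 CPM in Sox9-positive cells, Postn at 3933 and 4342 CPM, Aspn at 1106 and 1540 CPM, and Col3a1 at 19460 and 12714 CPM. Of 9 tested limb mesenchyme transcription factors only Msx1 was past 2-fold, at a log2 ratio of -1.75. None of 15 tested genes of the glycolysis and hypoxia list reached 2-fold in either direction. Of 8 immediate early genes, which respond to tissue dissociation, Atf3 was 2-fold lower (-1.17, or -0.88 depth-stratified), and Fos was at 4130 and 4004 CPM.

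The 15 lowest ratios were led by genes of pericytes and smooth muscle. All 8 listed pericyte markers were at least 2-fold lower, and they summed to 72.1 CPM in Sox9-positive and 1504 CPM in Sox9-negative cells, with Mylk as the most abundant and none at 0. Rgs5, a pericyte regulator of G-protein signalling, was at 3.81 and 775 CPM, and Myh11, smooth muscle myosin, at 0.70 and 240 CPM. These genes came from few cells. Rgs5 was found in 14.8% of thinned Sox9-negative and 2.25% of Sox9-positive cells, and cells with 2 or more pericyte markers made up 43 of 176 Sox9-negative (24.4%, 18.3 to 31.5) and 51 of 623 Sox9-positive cells (8.19%, 6.2 to 10.6). Without cells that held markers of other types, Myh11 was at a log2 ratio of 0.29 in place of -7.15 and Notch3 at 0.58, while Pi16 and Cd34 stayed below -2. Myh11, Notch3 and Rgs5 are markers by which those cells were left out, so their change follows from the exclusion. The other genes of the 15 reported here were Tinagl1, Pln, Bcam, Sncg, Ppp1r14a, Mustn1, Gucy1a1, Pcp4l1, Fbxl22, Sparcl1 and Myoc. Of these Myoc, best known from the eye, was 17.4-fold lower (15.1 to 20.2) and the others more. Without cells that held markers of other types, Rgs5, Tinagl1, Gucy1a1 and Fbxl22 came inside 2-fold, at log2 ratios of -0.20, -0.50, -0.05 and -0.03. Pln, Bcam and Pcp4l1 turned to 0.17, 0.32 and 1.34. Sncg, Ppp1r14a, Mustn1, Sparcl1 and Myoc stayed past 2-fold lower, from -1.32 for Ppp1r14a to -4.35 for Myoc.

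Markers of other cell types were measured for the same cells. The 6 tenocyte markers summed to 532 CPM in Sox9-positive and 665 CPM in Sox9-negative cells, with Thbs4 as the most abundant (364 and 526 CPM) and Col22a1 at 0. Cells with 2 or more tenocyte markers after thinning were 181 of 623 Sox9-positive (29.1%, 25.5 to 32.8) and 25 of 176 Sox9-negative cells (14.2%, 9.4 to 20.3). Scx was found in 19.9% (16.8 to 23.3) and 6.25% (3.2 to 10.9). Its share was 20.1% (15.8 to 24.9) in Sox9-low cells and 0 of the 27 Sox9-negative cells with pericyte markers (up to 12.8%). However, its level was at a log2 ratio of 0.65 as measured, -0.09 when depth-stratified and 2.43 without the cells that held any Col2a1. Tnmd, a marker of differentiated tenocytes, was found in 26.5% (23.1 to 30.1) and 17.0% (11.8 to 23.4). As background, it was also found in 7 of the 27 Sox9-negative cells with pericyte markers (25.9%, 11.1 to 46.3). This interval holds the shares of both groups, so Tnmd was not separated from this background. The 5 endothelial markers summed to 6.76 and 26.0 CPM with Tek as the most abundant, and the 5 adipocyte markers to 16.5 and 95.02 CPM with Fabp4 as the most abundant and Adipoq and Cidec at 0. The 5 myogenic markers summed to 0.53 CPM in the Sox9-positive cells with Cdh15 as the most abundant and Pax7 and Myf5 at 0, and no Sox9-positive cell held 2 of them, which allows a share of up to 0.482%. The 5 Schwann cell markers summed to 29.2 and 24.3 CPM, of which S100b, also made by chondrocytes, gave 25.4 CPM, and Sox10 was at 0. The part of tendon cells and of pericytes in the ratios given above was measured only by leaving these cells out.

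**Figure D4:**
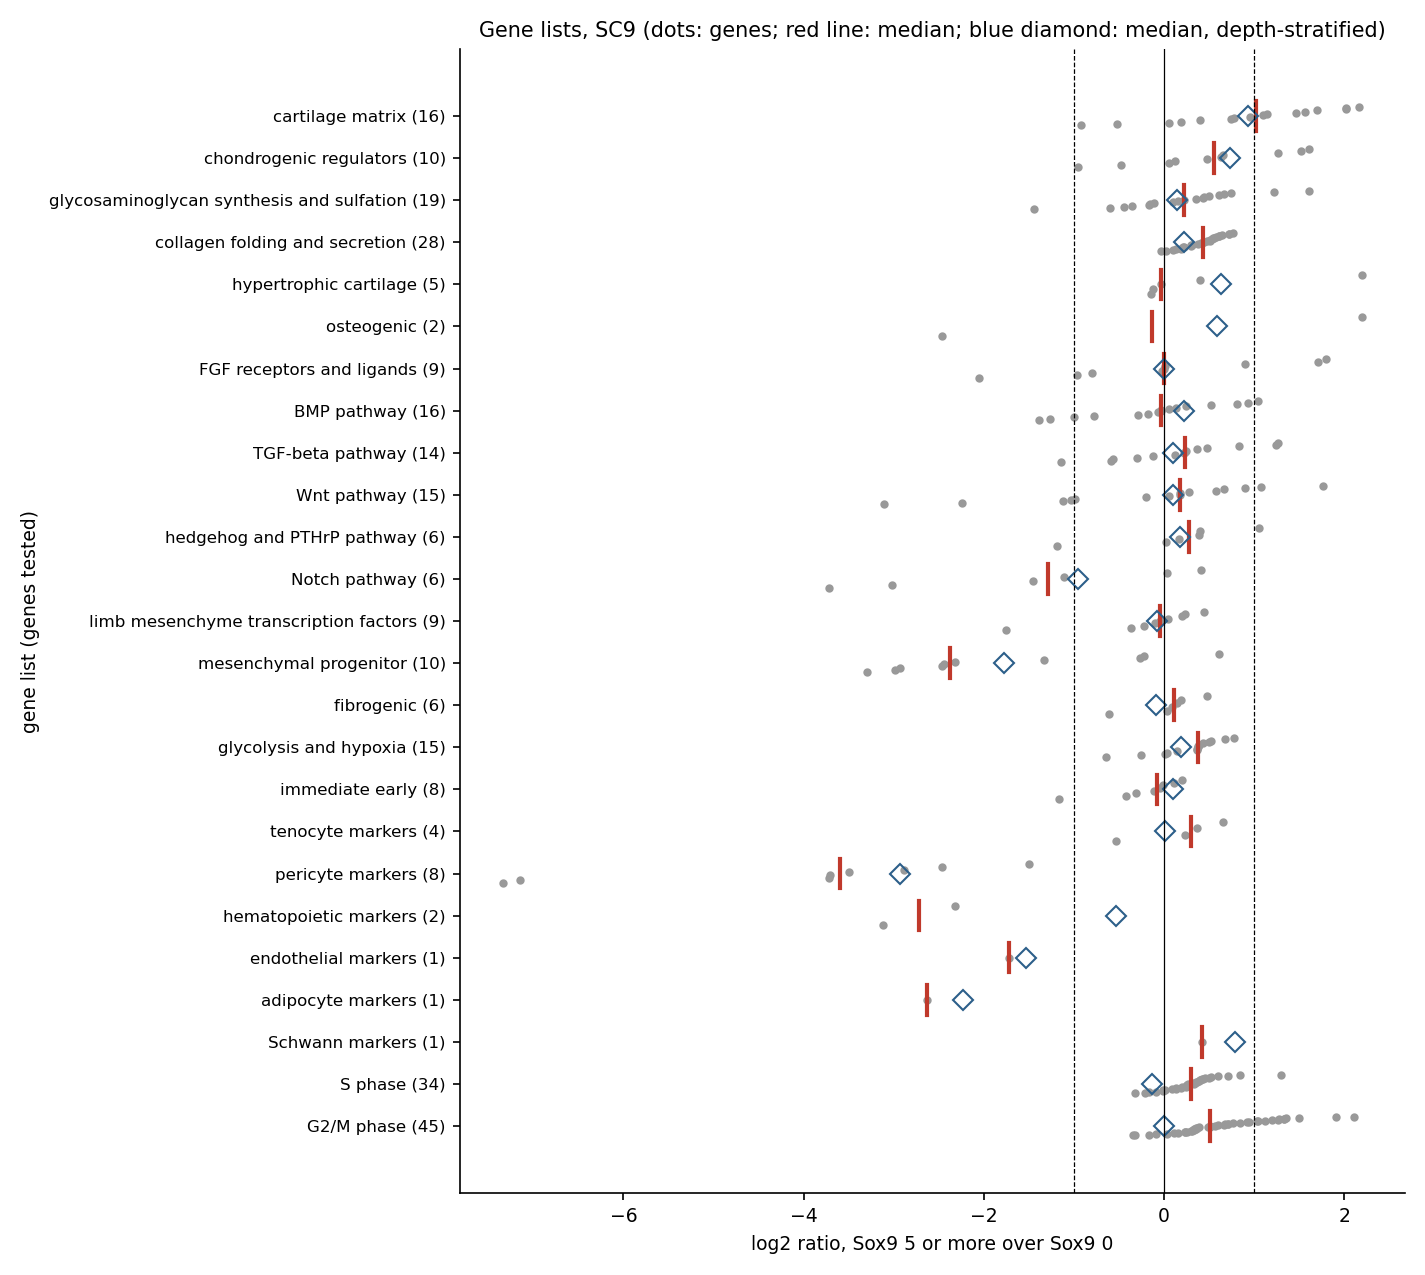
Log2 ratio of Sox9-positive over Sox9-negative cells for each tested gene (grey) of 25 gene lists, with the median as measured (red line) and depth-stratified (blue diamond) and dashed lines at 2-fold. The cartilage matrix list is at 1.03 and 0.93, the mesenchymal progenitor list at -2.38 and -1.77, and the G2/M list at 0.51 and 0.00.

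Some genes of cell division were higher in the Sox9-positive cells, and depth moved with them. Of 45 tested genes of the G2/M phase 12 were at least 2-fold higher and none lower, among them Top2a at 22.3 and 64.9 CPM, Nusap1 at 3.24 and 17.3 CPM and Cenpf at 8.58 and 34.96 CPM. Of 34 S phase genes 1, Dtl, was higher. When depth-stratified the G2/M count was 3, the median log2 ratio was 0.00 for the G2/M and -0.13 for the S phase list, and Dtl was at 0.61. Cells with 2 or more UMIs of Mki67 and Top2a together were 119 of 623 Sox9-positive (19.1%, 16.1 to 22.4), 16 of 176 Sox9-negative (9.09%, 5.3 to 14.3) and 125 of 232 Col2a1-high cells (53.9%, 47.2 to 60.4). After thinning to one depth Top2a was found in 14.8% (12.1 to 17.8) of Sox9-positive and 11.9% (7.5 to 17.7) of Sox9-negative cells, which overlap. With the dividing cells left out, 10 cartilage matrix genes and 2 G2/M genes were at least 2-fold higher. Mki67 and Top2a, which define the dividing cells, are on the G2/M list, so the lower G2/M count follows at least in part from the exclusion.

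The Col2a1-high cells differ from the Sox9-positive cells by their Col2a1 UMIs under the rule. Of 9694 genes tested 564 were at least 2-fold higher (5.82%) and 771 at least 2-fold lower (7.95%) in the Col2a1-high than in the Sox9-positive cells, with Col2a1 and Sox9 left out. Among the 9356 of them also tested in the first comparison, 394 were higher and 769 lower. Acan was 7.42-fold higher (7.23 to 7.62), Col9a2 9.37-fold (8.84 to 9.95), Col11a1 4.53-fold (4.44 to 4.62) and Wwp2 8.49-fold (8.06 to 8.94). Of the 16 cartilage matrix genes tested in the first comparison 12 were at least 2-fold higher and none lower, and of the 45 G2/M genes 36 were higher and none lower. Another 4 cartilage matrix and 7 G2/M genes passed the minimum level only here, where the Col2a1-high cells raise the mean, and are not counted. Slpi, at 491 and 494 CPM, and Matn4, at 274 and 256 CPM, were nearly level between these groups. Sfrp1 was 3.18-fold (3.095 to 3.28), Cxcl5 4.94-fold (4.61 to 5.30), Tnfsf11 3.87-fold (3.36 to 4.48) and Gzme 2.70-fold (2.51 to 2.90) lower in the Col2a1-high cells. This comparison has the Sox9-positive cells in common with the one above, so the ratios of the 2 comparisons are not independent.

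The Sox9-low cells lay between the Sox9-negative and Sox9-positive cells for Acan, Slpi, Sfrp1 and Pi16, but not for every gene, with Col1a1 and Prrx1 above both groups and Sox5 below both. Against the Sox9-low cells, 34 of 9729 genes tested were at least 2-fold higher and 146 at least 2-fold lower in the Sox9-positive cells. Among the higher were 2 cartilage matrix genes, Col9a1 and Col9a2, at log2 ratios of 1.21 and 1.02. Slpi was at 1.51, Gzmd at 2.00 and Vdr at 1.18. Acan was at 0.72, Sfrp1 at 0.64 and Pi16 at -1.89.

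The same rule was applied in the other libraries, whose cells had no part in choosing the genes of SC9. Sox9-positive cells were 0 of 26 deep cells in SC3, which allows a share of up to 11.5%, 543 of 4351 in SC4 (12.5%, 11.5 to 13.5), 694 of 4890 in SC5 (14.2%, 13.2 to 15.2) and 1592 of 9224 in SC10 (17.3%, 16.5 to 18.0). The median depth of cells with at least 10000 UMIs was 36633 UMIs in SC9 and 20376, 17943 and 18280.5 UMIs in SC4, SC5 and SC10. With Sox9 and Col2a1 counted after thinning to 10000 UMIs, the shares were 18.9% (16.9 to 21.1) in SC9, 3.06% (2.6 to 3.6) in SC4, 4.25% (3.7 to 4.9) in SC5 and 6.62% (6.1 to 7.2) in SC10. SC9 thus held the largest share at one depth as well among the libraries counted this way, which leave out SC3.

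Few genes separated Sox9-positive from Sox9-negative cells in those libraries. Sox9 was at 90.8, 112 and 123 CPM over the deep cells of SC4, SC5 and SC10, against 378 CPM in SC9, and their depth was lower. A count of 0 UMIs therefore says less about the absence of Sox9 there. How far this reduced the number of genes was not tested. In SC4 11 of 8163 tested genes were at least 2-fold higher (0.135%) and 23 lower (0.282%). In SC5 7 of 8185 were higher (0.0855%) and 20 lower (0.244%), and in SC10 10 of 9250 were higher (0.108%) and 11 lower (0.119%). Acan kept its direction and passed 2-fold in each of them, with 72.2 and 21.2 CPM in SC4, 9.54 and 4.25 CPM in SC5 and 82.2 and 36.6 CPM in SC10 (Sox9-positive and Sox9-negative cells). Of the cartilage matrix list, 2 of 8 tested genes were at least 2-fold higher in SC4, 1 of 7 in SC5 and 3 of 10 in SC10. Among these calls, Edil3 in SC4, Acan in SC5 and Col9a2 in SC10 passed the minimum level only through the Sox9-positive cells. Edil3 was at 9.74 and 4.35 CPM and Col9a2 at 9.52 and 4.14 CPM (Sox9-positive and Sox9-negative cells). Such calls are given as a description only. Slpi was at log2 ratios of 0.66, 0.62 and 0.53 in SC4, SC5 and SC10, Tnfsf11 at 0.12, 0.08 and 0.19, and Cxcl5 at -0.31, -0.38 and -0.24. Pi16 was lower at -2.34, -1.41 and -0.96. Of the 237 genes higher in SC9, 163 were tested in SC4 with 135 above 0, 150 in SC5 with 121 above 0, and 198 in SC10 with 163 above 0, and their median log2 ratios were 0.25, 0.18 and 0.27. This is 82.8%, 80.7% and 82.3% above 0, where all genes tested in both libraries had 48.3%, 54.6% and 46.8% above 0 and medians of -0.01, 0.01 and -0.01. Only 3, 1 and 6 of the genes higher in SC9 were at least 2-fold higher there. Of the 535 genes lower in SC9, 190 of 237 tested were below 0 in SC4, 218 of 282 in SC5 and 172 of 282 in SC10, with medians of -0.26, -0.20 and -0.07, and 12, 12 and 5 were at least 2-fold lower. These are 80.2%, 77.3% and 61.0% below 0, against 51.7%, 45.4% and 53.2% of all genes tested in both. A test of the difference between libraries was not possible with 1 library each.

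**Figure D5:**
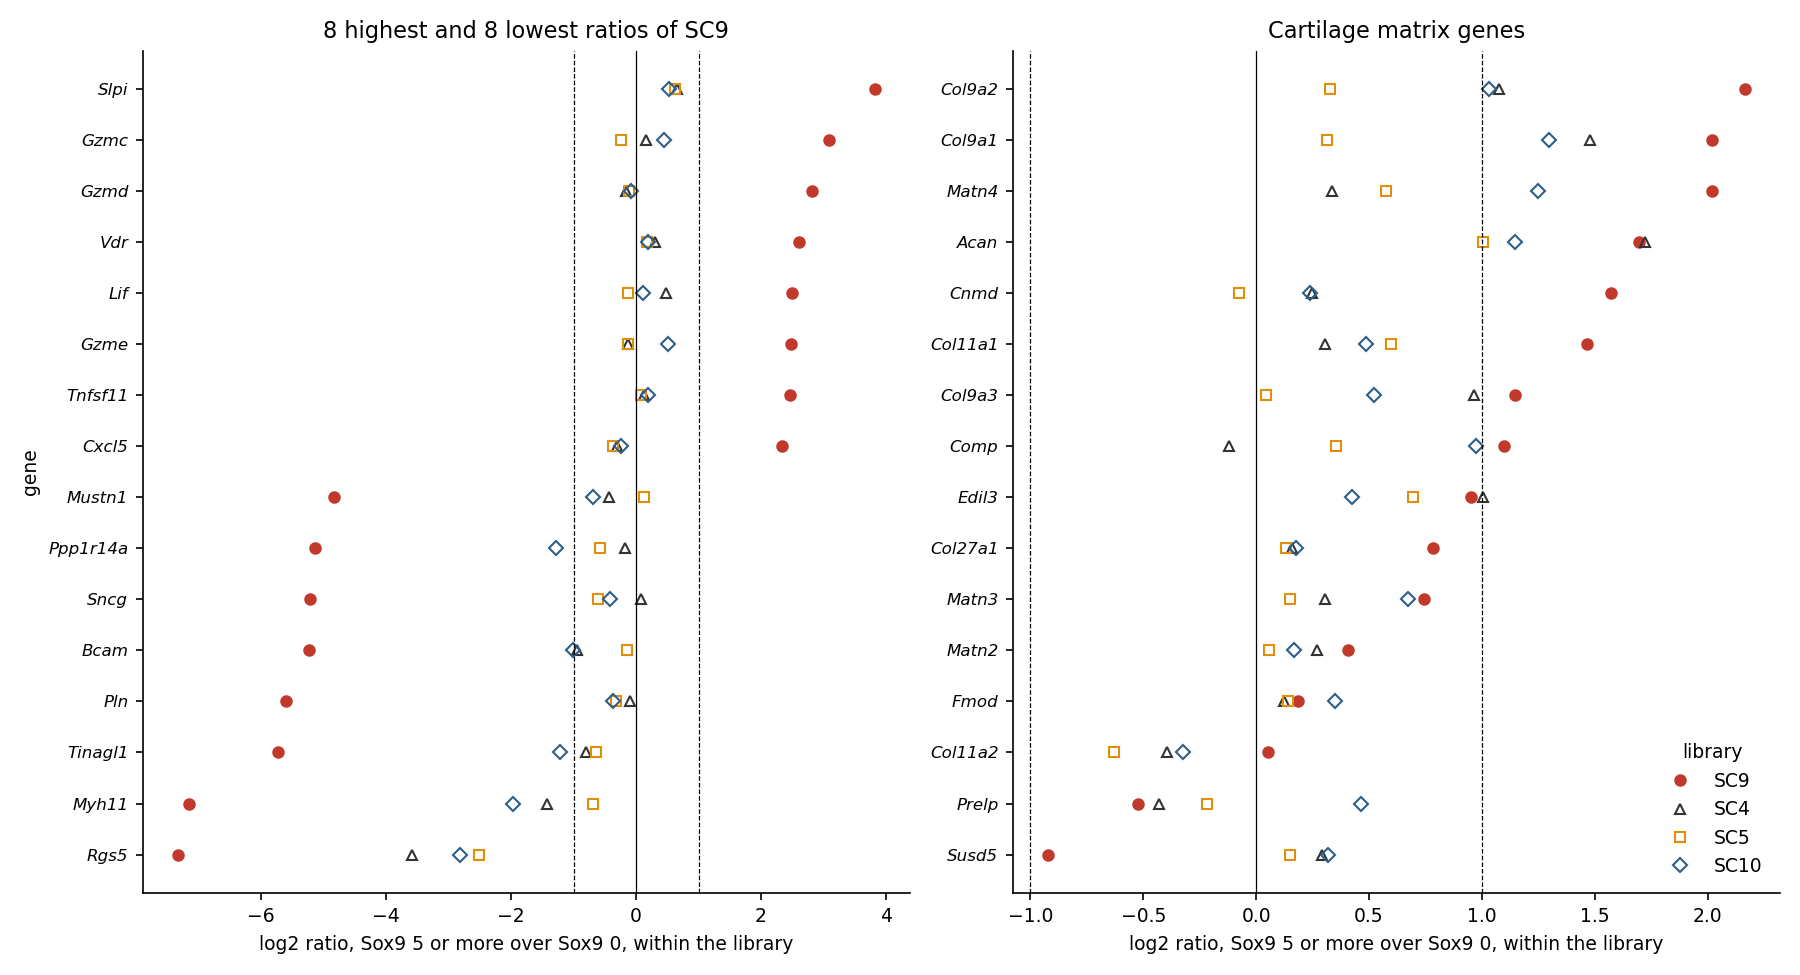
Log2 ratio of Sox9-positive over Sox9-negative cells within each of 4 libraries, for the 8 genes with the highest and the 8 with the lowest ratio in SC9 among the named genes (left) and for the cartilage matrix genes tested in SC9 (right), with dashed lines at 2-fold. Some of these genes were under 5 CPM in SC4, SC5 or SC10. Slpi is at 3.82 in SC9 and between 0.53 and 0.66 in the other libraries, and Acan at 1.70 in SC9 and between 1.01 and 1.72.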

How the data were processed

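GFP+ Prx1-derived cells of 5 libraries, 1 per label, were analysed, and the results concern SC9. The authors made 10x Genomics 3' libraries, aligned reads to mm10 and deposited raw UMI counts per gene and barcode, made with Cell Ranger (3.1.0 in the file headers) and not normalized. Seurat 3.1.2 is in the submitters' processing notes. Genes were matched by Ensembl identifier to GENCODE M21 (31011 of 31055). UMIs were summed over the cells of a group and divided by their total (CPM). Ratios were log2((CPM + 1)/(CPM + 1)) for genes with a mean of at least 5 CPM, called at 2-fold. Intervals (95%) are exact (Poisson, conditional for ratios, Clopper-Pearson for shares), and the limit for a count of 0 is 3 counts of the total. No test was run, because each group is 1 library and cells are not replicates. Possible doublets were kept. The automatic threshold of Scrublet (scanpy 1.11.5) called 1 barcode, and the 32 highest scores were left out as an alternative. Depth strata had lower edges at 10000, 15000, 20000, 30000 and 40000 UMIs. The ratio was checked on simulated Poisson counts with folds set in genes at 20 CPM or more. That check leaves out the uneven spread of UMIs over cells, so it does not bear on it. Cells, gene lists and rules were chosen with earlier results of these data known. Named were all tested cartilage matrix and chondrogenic regulator genes, the 15 highest and 15 lowest ratios among genes at 20 CPM or more that kept their sign and a log2 size of 0.58 when depth-stratified (Gm, Rik and mt- names skipped), and of each other list the 4 largest ratios and the most abundant gene. The result for 1 gene named by this rule is not reported here. Further genes, such as Ly6a, Sox6, Fgfr3, Col10a1, Ihh, Sp7, Pdgfra and Mki67, are markers or list members chosen after their values were seen.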

Additional observations from a re-analysis of the deposited data

How the results depend on the processing

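No paired analysis was possible because each group has 1 library. As measured, 237 genes were higher, 535 lower, 8 of the cartilage matrix list higher and 12 of the G2/M list higher. The cartilage count was between 7 and 11 in all alternatives but 2, being 5 with a mean CPM of at least 20, a filter that fewer genes pass, and 2 against cells with 1 to 4 UMIs of Sox9. Counts past 1.5 times the reported ones follow. Depth-stratified, 336 genes were lower and 3 G2/M genes higher. With a pseudocount of 5 CPM 140 genes and 4 G2/M genes were higher. With a mean CPM of at least 1 881 genes were lower, and with 20 123 were higher, 264 lower and 3 of the G2/M list higher. G2/M genes numbered 25 without shared barcodes and 2 without dividing cells. Against the cells with 1 to 4 UMIs 34 genes were higher, 146 lower and 2 of the G2/M list higher. Without dividing cells and cells with markers of other types, depth-stratified (323 Sox9-positive and 92 Sox9-negative cells), 566 were higher and 0 of the G2/M list. These last 2, and the exclusion of 5 cells with large copies, were added after the data were seen. The share of Sox9-positive cells, 45.5%, was 53.9% with 3 or more and 29.1% with 10 or more UMIs of Sox9, 11.5% with 0 UMIs of Col2a1, 49.2% with at least 20000 UMIs, 40.4% without shared barcodes and 18.9% after thinning.

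Of 78 named genes past 2-fold, 33 came inside 2-fold and 13 changed sign in at least 1 alternative other than the added ones, and 38 stayed past 2-fold against cells with 1 to 4 UMIs of Sox9. Without cells with markers of other types, by construction for the pericyte genes, the log2 ratio was 0.29 for Myh11, 0.17 for Pln, 0.32 for Bcam, 1.34 for Pcp4l1, 0.58 for Notch3, 1.80 for Ibsp, 1.25 for Des, 1.14 for Mylk, 0.20 for Lyz2 and 0.44 for Fabp4. With dividing cells left out too and depth-stratified, it was 0.57 for Rgs5, 0.31 for Myh11, 0.38 for Tinagl1, 0.22 for Pln, 0.32 for Bcam, 2.00 for Pcp4l1, 0.059 for Notch3, 2.26 for Ibsp, 0.10 for Id4, 0.12 for Heyl, 1.72 for Des, 1.78 for Mylk, 0.064 for Lyz2, 1.19 for Fabp4 and -0.41 for Top2a. Without dividing cells it was 1.66 for Ibsp, -0.11 for Nusap1 and -0.21 for Top2a. Tyrobp was at 0.028 and Lyz2 at 0.54 with at least 20000 UMIs, Lyz2 at 0.47 with 0 UMIs of Col2a1, and Lyz2 at 0.31 and Fabp4 at 0.93 against cells with 1 to 4 UMIs of Sox9. Top2a helps define dividing cells and Lyz2 is a marker of other types, so their values without those cells also follow from construction. Where no construction is named, the cause was not tested. Depth limits genes near 5 CPM, where the 4314759 UMIs of the Sox9-negative cells hold about 22 UMIs of a gene.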
